A study of Mus musculus with 6 samples.

Results

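The Hox cluster genes were followed in cells of the mouse ovarian surface epithelium sorted by aldehyde dehydrogenase (ALDH) activity. All probe sets whose annotation gives exactly 1 symbol of the form Hox, a letter from a to d and a number were taken, for protein-coding genes alone. This gave 48 probe sets for 33 genes, out of 45037 probe sets in all and 39 protein-coding Hox genes in RefSeq. The samples were 3 ALDH-positive and 3 ALDH-negative, and every one of the 6 came from virgin FVB/N females aged 8 weeks. Animals were pooled, 10 mice to each of 3 pools, and a pool gave 1 array per fraction after 24 hours of culture and sorting on the fluorescent ALDH substrate ALDEFLUOR. Gates were set with DEAB-treated and unstained controls. The fractions differ by this stain and by no genotype or agent, and a sort gate on enzyme activity need not hold a single cell type. Values are log2 signals of Affymetrix arrays, quantile normalized, so a difference of 1 is a doubling. The question was which clusters and paralogue positions have signal in each fraction, and whether any member differs between them.

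Hox genes encode homeodomain transcription factors that give cells their position along the body axis. They lie in 4 clusters, A to D, and genes of the same number in different clusters are paralogues of common descent. Low numbers are used towards the head and high numbers towards the tail, and retinoic acid, the product of some ALDH enzymes, is a known activator of the low-numbered genes. In the female tract Hoxa9, Hoxa10, Hoxa11 and Hoxa13 pattern the Müllerian duct from oviduct to vagina, whereas the ovarian surface epithelium derives from the coelomic lining.

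By the detection rule used here, a continuous run of the C cluster had signal in both fractions. A probe set was called detected on an array when it read above the 95th percentile of 80 probe sets for chemosensory receptors (olfactory, vomeronasal and taste), which served as background. A gene was called detected in a fraction when 1 of its probe sets passed on at least 2 of 3 arrays. By this rule the ALDH-negative fraction had 14 detected Hox genes and the ALDH-positive fraction 12, and 11 of these were the same genes. On each array a smaller share of the Hox probe sets than of all probe sets was detected, 8.3 to 37.5% against 16.3 to 59.2%. The shared genes are Hoxa7, Hoxb4, Hoxb9, Hoxb13, Hoxc4, Hoxc5, Hoxc6, Hoxc8, Hoxc9, Hoxd8 and Hoxd9. In the C cluster the 5 neighbouring genes Hoxc4 to Hoxc9 were all detected in both fractions, while Hoxc10 and Hoxc13 were not detected in either. In the D cluster the neighbours Hoxd8 and Hoxd9 were detected, and the other 6 genes measured, from Hoxd1 and Hoxd3 to Hoxd10, Hoxd11, Hoxd12 and Hoxd13, were not.

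**Figure D1:**
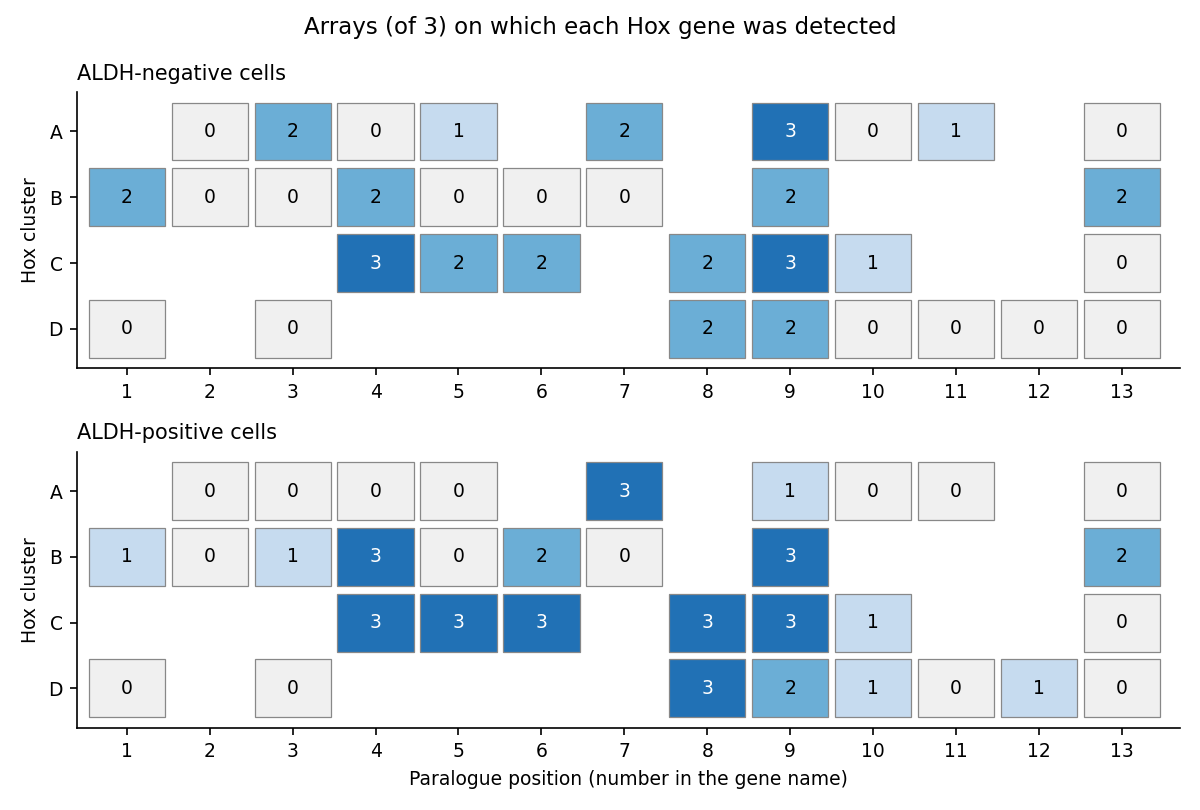
Number of arrays, of 3 per fraction, on which each Hox gene was detected, by cluster (rows) and paralogue position (columns). Squares are the 33 genes with a probe set of 1 symbol, and positions without a square were not analysed here or have no gene in that cluster. Squares from Hoxc4 to Hoxc9 show 2 or 3 arrays in both fractions. Of 14 posterior genes, 5 reached at least 2 arrays in ALDH-negative cells and 4 in ALDH-positive cells. Of 10 anterior genes, 4 and 2 did so.

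By position class, 4 of 10 anterior genes (numbers 1 to 4) were detected in the ALDH-negative fraction and 2 in the ALDH-positive one. At the 99th percentile of the background the anterior genes detected were the same in both fractions, Hoxb4 and Hoxc4. Of 9 central genes (5 to 8), the ALDH-negative fraction had 5 and the ALDH-positive one 6. Of 14 posterior genes (9 and above), 5 and 4 were detected, which were the paralogues of number 9 and Hoxb13. No gene of number 10, 11 or 12 was detected in either fraction under this rule. Among the regulators of the female tract, Hoxa9 passed on all 3 ALDH-negative arrays, by 0.07 to 0.31, and on 1 ALDH-positive array. Hoxa10 read 0.32 to 1.12 at its 2 probe sets over the 6 arrays and Hoxa13 read 1.40 to 2.27. Hoxa11 read 1.93 to 3.38 and passed on 1 array, that of ALDH-negative cells of pool 3. For Hoxa10, Hoxa11 and Hoxa13 these values show no detection by this rule at the precision of the arrays. They do not show that the transcripts are absent.

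The level of background differed between arrays, and this bears on every ALDH-negative value. The detection level was 5.87 on the ALDH-negative array of pool 2 and 2.61 to 3.41 on the 5 other arrays. On that array 16.3% of all probe sets were detected, against 45.5 to 59.2% on the others, and 4 Hox genes, against 12 to 16. Its correlation with the other arrays over all probe sets was 0.56 to 0.68, while the 5 others correlated at 0.85 to 0.97. Of 13 Y-linked probe sets, which should be silent in females, 2 to 3 passed on each array. When pool 2 was left out and both remaining arrays had to pass, the ALDH-negative fraction had 13 genes and the ALDH-positive one 10, and 10 of them were the same. These 10 are the shared genes above without Hoxd9. At the stricter 99th percentile the ALDH-negative fraction had 5 genes and the ALDH-positive one 9, and 5 were the same, namely Hoxb4, Hoxc4, Hoxc8, Hoxc9 and Hoxd8. Hoxc5 and Hoxc6 then passed in ALDH-positive cells alone, so the C run was broken in ALDH-negative cells. With all 3 arrays required, only Hoxc4 and Hoxc9 of the run remained in ALDH-negative cells.

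**Figure D2:**
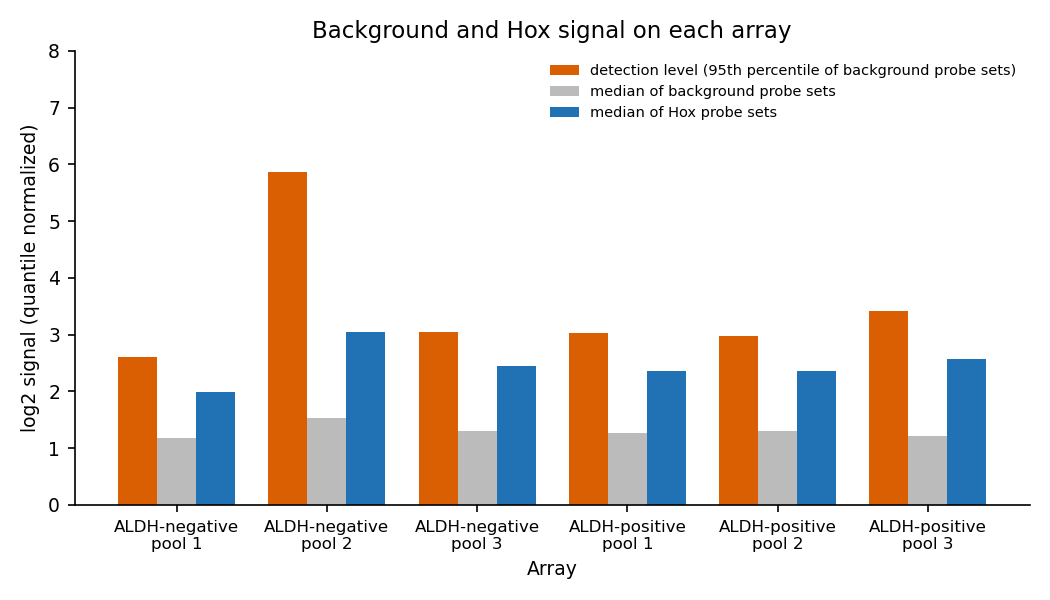
Log2 signal on each of the 6 arrays: the detection level (95th percentile of 80 background probe sets), the median of those background probe sets, and the median of the 48 Hox probe sets. The ALDH-negative array of pool 2 has a detection level of 5.87, against 2.61 to 3.41 on the others.

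To show the sequence at the start of these genes, the promoter windows of 4 detected members are given. They are the 3 genes that had an entry in the RefSeq promoter table (mouse build GRCm38.p6) and passed the stricter level in both fractions, together with Hoxd9, the neighbour of Hoxd8. Each window holds 250 bases before and 50 after the start of the gene, on the plus strand in all 4. Capitals mark the letters AGGTCA on either strand, the half-site bound by retinoic acid receptors and other nuclear receptors. The windows are chr11:96318017-96318316 for Hoxb4, chr15:103034145-103034444 for Hoxc4, chr2:74704365-74704664 for Hoxd8 and chr2:74697513-74697812 for Hoxd9.
Hoxb4: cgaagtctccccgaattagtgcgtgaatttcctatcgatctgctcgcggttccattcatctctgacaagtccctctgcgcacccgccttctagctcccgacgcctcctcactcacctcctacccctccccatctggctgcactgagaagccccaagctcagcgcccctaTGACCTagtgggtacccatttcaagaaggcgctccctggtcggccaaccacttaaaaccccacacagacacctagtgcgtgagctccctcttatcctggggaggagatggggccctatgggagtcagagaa
Hoxc4: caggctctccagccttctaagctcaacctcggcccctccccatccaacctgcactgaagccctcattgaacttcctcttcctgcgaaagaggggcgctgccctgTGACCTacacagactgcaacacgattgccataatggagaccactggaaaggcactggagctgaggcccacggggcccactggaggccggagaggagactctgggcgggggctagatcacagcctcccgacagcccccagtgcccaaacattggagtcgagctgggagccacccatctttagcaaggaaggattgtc
Hoxd8: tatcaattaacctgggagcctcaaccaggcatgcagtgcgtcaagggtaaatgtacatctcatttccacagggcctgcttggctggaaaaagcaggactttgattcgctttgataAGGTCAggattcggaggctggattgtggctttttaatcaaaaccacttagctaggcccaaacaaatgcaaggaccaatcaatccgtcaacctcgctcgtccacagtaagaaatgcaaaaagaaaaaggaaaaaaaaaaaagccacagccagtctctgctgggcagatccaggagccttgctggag
Hoxd9: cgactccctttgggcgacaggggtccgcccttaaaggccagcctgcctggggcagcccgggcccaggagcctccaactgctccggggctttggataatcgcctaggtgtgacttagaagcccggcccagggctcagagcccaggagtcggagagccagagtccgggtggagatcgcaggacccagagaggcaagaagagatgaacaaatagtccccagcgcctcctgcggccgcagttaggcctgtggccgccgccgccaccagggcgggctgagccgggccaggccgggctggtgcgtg

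The half-site AGGTCA was found at -81 in Hoxb4 and at -146 in Hoxc4, both on the opposite strand as TGACCT, and at -135 in Hoxd8 on the same strand, counted from the start of the gene. Hoxd9 held none in this window. Over the 21 windows of 19 members with an entry, 6 held it (28.6%), against 16.3% of 32851 windows of all genes. The other windows with it belong to Hoxa5, Hoxd3 and Hoxd10, which were not detected. The TATA letters TATAAA were found in 9.52% of the Hox windows and 13.6% of all windows. TGATNNAT, a joint Hox and Pbx motif, stood in 14.3% of the Hox windows and 8.85% of all windows. The windows shown hold no match to TATAAA or TGATNNAT. Such matches describe the letters of the window, and binding was not measured.

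Hoxc4, the first gene of the C cluster and a regulator of cervical and thoracic identity, was detected on all 6 arrays. Its log2 signal was 6.62, 7.24 and 6.82 in ALDH-negative cells of pools 1, 2 and 3, and 6.99, 6.71 and 6.55 in ALDH-positive cells. The fractions overlapped, and the mean difference of ALDH-positive minus ALDH-negative cells was -0.14 (SE 0.65, SD of the 3 pool differences 0.47). Here and below, SE is the moderated standard error from limma, which also draws on the spread of all probe sets tested. The 95% interval of the mean difference, from limma, was -1.65 to 1.37. Its sign turned with the scaling, to 0.44 in the deposited values and 0.60 with each array centred on its median.

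Hoxc9, which acts at the thoracic to lumbar boundary, was also detected on every array. It read 4.45, 6.15 and 5.43 on the ALDH-negative arrays and 4.51, 5.80 and 5.85 on the ALDH-positive ones. Both fractions covered the same range, and the difference was 0.04 (SE 0.64, 95% interval -1.46 to 1.54).

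Hoxc8, a gene of the thoracic axis, was higher in ALDH-positive cells of each pool. It read 4.34, 5.68 and 6.31 on the ALDH-negative arrays and 6.17, 6.25 and 6.95 on the ALDH-positive ones. The pools differed by 1.84, 0.57 and 0.64, with a mean of 1.02 (SE 0.67, limma adjusted p = 0.895, 95% interval -0.54 to 2.57). The groups overlapped, since the ALDH-negative array of pool 3 read above 2 ALDH-positive arrays. The mean of pools 1 and 3 was 1.24.

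Hoxc5 and Hoxc6 have 3 probe sets each, all of them tested. At the brightest probe set of Hoxc5 the ALDH-negative arrays read 3.58, 5.69 and 3.04 and the ALDH-positive arrays 4.68, 5.12 and 3.52. The 3 probe sets differed by 0.34, 0.16 and -0.27, with limma adjusted p-values of 0.920, 0.957 and 0.944. For Hoxc6, a gene of the thoracic region and of the mammary gland, the brightest probe set read 3.57, 5.81 and 4.89 on the ALDH-negative arrays and 3.91, 4.18 and 4.83 on the ALDH-positive ones.

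The probe sets of Hoxc6 disagreed in sign. The brightest differed by -0.45 (SE 0.70), with pools at 0.34, -1.64 and -0.06, and the mean of pools 1 and 3 was 0.14. The second read 1.93, 3.82 and 2.38 against 2.60, 4.86 and 3.12, a difference of 0.81 (SE 0.63) that was positive in each pool. The third read 2.54, 4.37 and 2.12 against 2.87, 4.46 and 4.01, a difference of 0.77 (SE 0.70), again positive in each pool. These dimmer probe sets passed the detection level on no ALDH-negative array and on 1 and 2 ALDH-positive arrays. None of the 3 passed the threshold (limma adjusted p = 0.902, 0.895 and 0.895).

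**Figure D3:**
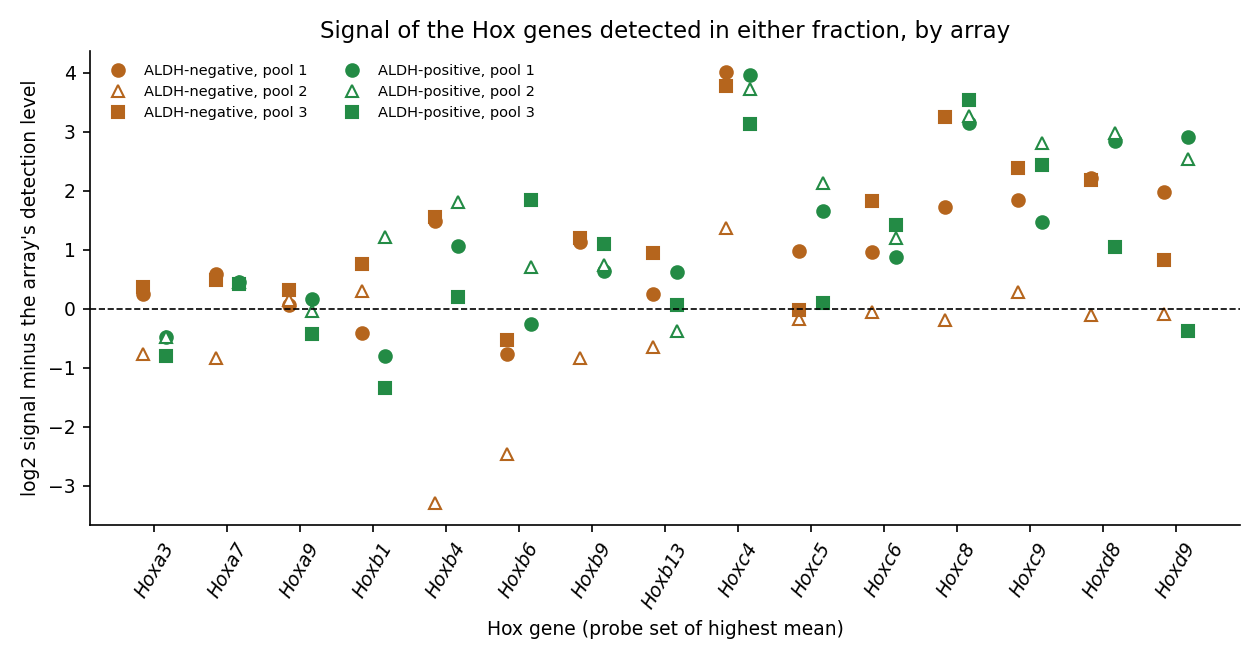
Log2 signal minus the detection level of the same array, for the 15 Hox genes detected in either fraction (probe set of highest mean); values above the dashed line at 0 are detected. Circles, open triangles and squares are pools 1, 2 and 3, with ALDH-negative cells in brown and ALDH-positive cells in green. Hoxc4 lies above 0 on all 6 arrays, and most open brown triangles lie at or below 0.

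In the D cluster, Hoxd8 and Hoxd9, genes of the trunk and of the limb, varied more between pools than between fractions. Hoxd8 read 4.83, 5.76 and 5.24 on the ALDH-negative arrays and 5.88, 5.97 and 4.47 on the ALDH-positive ones. Its pool differences of 1.05, 0.21 and -0.77 averaged 0.16 (SE 0.69), and a second probe set gave -0.21 (SE 0.67). Hoxd9 read 4.59, 5.78 and 3.88 on the ALDH-negative arrays and 5.94, 5.53 and 3.03 on the ALDH-positive ones.

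Its pools thus pointed in different directions, at 1.35, -0.25 and -0.85, with a mean of 0.08 (SE 0.72). Hoxd9 was below the detection level on the ALDH-positive array of pool 3. On that same array Hoxd10, a gene of the lumbar spinal cord and the limb, read 4.80. Its ALDH-negative arrays read 0.92, 0.91 and 0.69, and the ALDH-positive arrays of pools 1 and 2 read 1.92 and 0.90. Thus 1 of 6 arrays carried Hoxd10 signal, and the probe set was too dim over all arrays to be tested. The remaining D genes gave no array above its detection level except Hoxd12, at 3.97 on the same ALDH-positive array.

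In the B cluster, Hoxb4, known for its effect on blood stem cells, read 4.09, 2.57 and 4.62 on the ALDH-negative arrays and 4.10, 4.79 and 3.62 on the ALDH-positive ones. The values overlapped, with a difference of 0.41 (SE 0.80), and of -0.50 in pools 1 and 3. Hoxb9 read 3.74, 5.04 and 4.25 against 3.67, 3.73 and 4.52, a difference of -0.37 (SE 0.68), and of 0.097 in pools 1 and 3. Hoxb13, which acts in the tail and the prostate, exceeded the detection level by at most 0.94 on any array. Its difference was -0.77 (SE 0.81), with 0.81, -2.61 and -0.51 in pools 1 to 3 and 0.15 as the mean of pools 1 and 3.

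Hoxb6, a gene of the lateral plate and trunk, was detected in ALDH-positive cells alone by the rule used. It read 2.77, 3.70 and 5.25 on the ALDH-positive arrays and 1.85, 3.40 and 2.52 on the ALDH-negative ones. The 2 ALDH-positive arrays above their detection level were those of pools 2 and 3. The pool differences of 0.92, 0.30 and 2.73 averaged 1.32 (SE 0.74, limma adjusted p = 0.895, 95% interval -0.40 to 3.04). The groups overlapped, and that difference did not pass the threshold.

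Hoxb1, which specifies hindbrain segments, read 2.20, 6.17 and 3.82 on the ALDH-negative arrays and 2.23, 4.20 and 2.08 on the ALDH-positive ones. Its difference was -1.23 (SE 0.71, limma adjusted p = 0.895), with 0.03, -1.97 and -1.74 in pools 1 to 3. The mean of pools 1 and 3 was -0.85. An unpaired fit without the ALDH-negative array of pool 2, which kept the ALDH-positive array of that pool, gave -0.17. Hoxb1 was detected on 2 ALDH-negative arrays and 1 ALDH-positive array. The remaining B genes Hoxb2, Hoxb5 and Hoxb7 were not detected on any array. Hoxb3 passed on 1 array, again that of ALDH-positive cells of pool 3, where a probe set read 4.26 against 1.82 in ALDH-negative cells.

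The A cluster had the fewest genes with signal in ALDH-positive cells, 1 of 9, against 3 of 9 in ALDH-negative cells. This contrast rests on small margins, since Hoxa3 and Hoxa9 exceeded the detection level in ALDH-negative cells by at most 0.37. At the 99th percentile no A gene was detected in either fraction. Hoxa7 was the member detected in both, and it exceeded the detection level by at most 0.60. Hoxa3, a regulator of the pharyngeal arches, read 2.85, 5.11 and 3.43 on the ALDH-negative arrays and 2.56, 2.50 and 2.61 on the ALDH-positive ones. All ALDH-positive arrays were below all ALDH-negative ones, as was the case for 3.4% of all probe sets tested and for 1 of 22 Hox probe sets. The difference was -1.24 (SE 0.73, limma adjusted p = 0.895, 95% interval -2.94 to 0.46), and -0.56 in pools 1 and 3. The 3 dimmer probe sets of Hoxa3 differed by 0.03, -0.22 and -0.35.

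Hoxa9, the paralogue linked to the oviduct, read 2.67, 6.01 and 3.37 on the ALDH-negative arrays and 3.20, 2.94 and 2.99 on the ALDH-positive ones. Its mean difference of -0.97 (SE 0.84) came with a pool 2 value of -3.07, and pools 1 and 3 averaged 0.0755. A second, dimmer probe set was detected on no array and differed by -0.60. Of the rest, Hoxa5 passed on 1 ALDH-negative array, and Hoxa2 and Hoxa4 on none.

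Across the whole table, no Hox probe set differed between the fractions at the threshold. The 22 Hox probe sets bright enough to test, which stand for 17 genes, gave 0 calls at an adjusted p of 0.05 in limma, beside 0% of 27022 probe sets in all. At an unadjusted p under 0.05 the Hox count was again 0, against 2.04% of all probe sets higher and 0.403% lower in ALDH-positive cells. That count was not 0 in every setting. In limma, Hoxc8 had an unadjusted p of 0.0499 in the deposited values (adjusted p = 0.966) and 0.0372 with median-centred arrays (adjusted p = 1.00). Without pool 2, Hoxb6 had 0.0187 and Hoxc8 0.0424 (adjusted p = 0.909 for both), and without the ALDH-negative array of pool 2 the third probe set of Hoxc6 had 0.0453 (adjusted p = 1.00). In the paired fit of all pools the smallest unadjusted p of a Hox probe set was 0.114, for Hoxb6. Without the filter on dim probe sets all 48 were tested, with 0 calls beside 0% of 45037. The 95% intervals of the 22 differences reached from -2.95 to 3.04 at their extremes, so that changes of several-fold in single members remain within the error. No Hox probe set had all ALDH-positive arrays above all ALDH-negative arrays among those tested, against 3.49% of all.

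**Figure D4:**
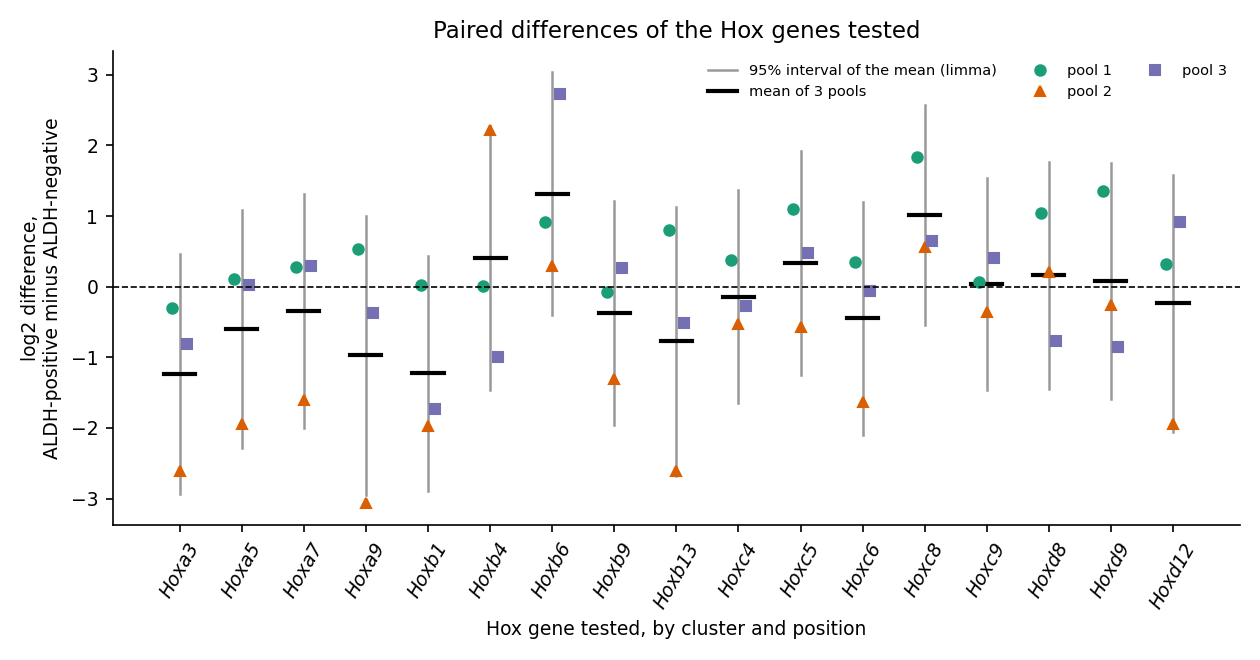
Log2 difference of ALDH-positive minus ALDH-negative cells in each of 3 pools for the 17 Hox genes tested, ordered by cluster and position. Black bars are means and grey lines the 95% intervals from limma, all of which include 0. The orange triangles of pool 2 are the lowest value for most genes, with a median of -1.31, against 0.34 and -0.06 in pools 1 and 3.

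In direction, 2 of the 17 genes were higher in ALDH-positive cells in all 3 pools, Hoxb6 and Hoxc8, against 11.3% of 12814 genes. The count of those lower in each pool was 1, Hoxa3, against 11.4%. With 17 genes, neither count stands apart from those shares. The 17 genes had a median difference of -0.24, with 7 above and 10 below 0, while all genes tested had a median of -0.08. Their medians by pool were 0.34, -1.31 and -0.06, and without pool 2 the median was 0.14, with 9 of the 17 genes on the other side of 0. With all pools kept, the median was also above 0 without the filter (0.11 over 33 genes) and with a stricter one (0.0822 over 9 genes). With each array centred on its median instead, the Hox median was 0.0067 and that of all genes 0.26. The background probe sets also read lower in ALDH-positive cells of pool 2, in 59 of 80 cases (median -0.31), as did 30 of the 48 Hox probe sets (median -0.38). In bulk samples of sorted cells, fewer cells with a transcript and less transcript per cell cannot be told apart.

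By cluster, the median difference was -0.79 over 4 tested A genes, -0.37 over 5 B genes, 0.04 over 5 C genes and 0.08 over 3 D genes. By position it was -0.68 for 4 anterior, 0.16 for 7 central and -0.30 for 6 posterior genes. In pool 1 these position classes stood at 0.02, 0.92 and 0.43, and in pool 3 at -0.91, 0.29 and -0.06. The median of the central genes was thus above 0 in pools 1 and 3, while in pool 2 it was -0.58. Single central genes still lay below 0 in pool 3, namely Hoxc6 (-0.06) and Hoxd8 (-0.77).

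When arrays were weighted by their fit, 3 of 22 Hox probe sets passed the threshold, beside 10.9% of all probe sets. These were Hoxb6 (2.30, limma adjusted p = 0.00261) and the third probe set of Hoxc6 (1.52, adjusted p = 0.0206), both higher in ALDH-positive cells, and Hoxb1 (-1.38, adjusted p = 0.0357), which was lower. Those weights were 4.87 for both arrays of pool 3, 1.30 for pool 1 and 0.16 for pool 2, so the result leans on pool 3. Over the 48 Hox probe sets the signals of the 2 fractions correlated at r = 0.95 in pool 1, 0.81 in pool 2 and 0.77 in pool 3. Probe sets share their binding strength between arrays, which raises such values, and over all probe sets they were 0.97, 0.59 and 0.91.

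The partners of Hox proteins were measured beside them. Of the TALE cofactors, homeodomain proteins that bind DNA jointly with Hox factors, 6 of 9 were tested and detected in both fractions, and 0 rose or fell (median -0.53, and 0.30, -2.08 and -0.16 by pool). Those of smallest p were Pknox1 (-1.27, SE 0.75), Meis3 (-1.05, SE 0.84), Pbx2 (-0.62, SE 0.72) and Pbx4 (-0.44, SE 0.85). In pools 1 and 3 alone they averaged -0.80, 0.011, 0.037 and 0.60. The probe sets of Pknox1 disagreed, since the others gave 1.86 (SE 0.75) and 0.34 (SE 0.65). Meis1 and Meis2 were not detected in either fraction, although Meis2 read 3.78 on the ALDH-positive array of pool 2. All 21 tested regulators of Hox chromatin, the Polycomb and trithorax proteins that silence or maintain Hox genes, were detected in both fractions and 0 passed the threshold. Among them Eed, a core Polycomb subunit, differed by 2.23 (SE 0.92, adjusted p = 0.895), and by 0.36, 4.70 and 1.62 in pools 1 to 3, so that pools 1 and 3 averaged 0.99.

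The other Polycomb members of smallest p were Phc1 (1.35, SE 0.70), Phc2 (1.74, SE 0.90) and Pcgf2 (1.11, SE 0.84), of which a second probe set gave -0.35 (SE 0.74). In pools 1 and 3 alone, Phc1 averaged 0.92, Phc2 0.51 and Pcgf2 0.047. These named members were all higher in mean in ALDH-positive cells, but the list was split. Of the 21 chromatin regulators tested, 11 were higher and 10 lower (median 0.36, and 0.05, 0.04 and -0.36 by pool). Of the ParaHox and flanking homeobox genes, 3 of 11 were tested, with Cdx2, a known activator of Hox genes in the gut and tail, at -0.98 (SE 0.86, and 0.14 in pools 1 and 3) and 0 past the threshold. Of the retinoic acid genes, Aldh1a2, which makes retinoic acid, read 2.86, 2.09 and 2.87 on the ALDH-negative arrays and 7.97, 7.73 and 7.64 on the ALDH-positive ones, a difference of 5.17 (SE 0.64, adjusted p = 0.765). It was above the detection level on 1 of 3 ALDH-negative arrays, so the size of this difference rests on values near background. Its values did not overlap, yet it did not pass over all probe sets, and 0 of the 12 tested members did. Dhrs3, which reduces retinaldehyde, stood at 1.49 (SE 0.67), Aldh1a1 at 2.76 (SE 1.25) and Cyp26a1, which degrades retinoic acid, at -1.87 (SE 1.08). Without pool 2, Aldh1a1 averaged 0.68 and Cyp26a1 -0.30. The 4 anterior Hox genes tested, of 10 on the arrays, lay between -1.24 and 0.41. A link between the retinoic acid genes and the Hox values was not tested.

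Markers of cell types were read on the same arrays. All 11 surface epithelium markers were detected in the ALDH-positive fraction and 8 in the ALDH-negative one, with median levels of 6.97 to 8.00 and 3.90 to 4.84. Krt19, a keratin of simple epithelia, read 3.90, 3.02 and 2.64 on the ALDH-negative arrays and 8.89, 9.10 and 6.19 on the ALDH-positive ones. Of 9 granulosa markers 7 were tested, and of 6 steroidogenic markers 4, and all those tested were detected in both fractions. Granulosa markers had median levels of 6.40 to 7.31 on the ALDH-positive arrays and 4.50 to 7.58 on the ALDH-negative ones. Median levels of the steroidogenic list were 9.21 to 10.42 on the ALDH-positive arrays and 4.98 to 10.78 on the ALDH-negative ones, the lowest in pool 2. Stroma markers (6 of 7 tested) lay at 5.17 to 6.53 and 4.33 to 5.59, and leukocyte markers (3 of 6) at 2.76 to 3.41 and 2.92 to 3.89. Endothelial markers (2 of 6) lay at 3.37 to 4.67 and 3.25 to 3.64. Of these 2 endothelial genes 1 was higher, Kdr (1.44), and 1 lower in mean in ALDH-positive cells. Cdh5 (-1.07 and -0.68) and Emcn (-1.25), too dim to be tested, were lower. Of 5 oviduct markers on the array, 2 were detected in each fraction, Emx2 among them. The 2 tested went opposite ways, with 1 higher in mean in ALDH-positive cells, Emx2 (2.74), and 1 lower. Pax8 and Foxj1 were detected in neither fraction and Ovgp1 on 1 ALDH-positive array. Emx2, also a gene of the genital ridge, read 6.31, 6.19 and 7.20 on the ALDH-positive arrays. On the ALDH-negative arrays it read 4.80, 1.37 and 5.28. The part of these mixtures in the Hox values was not tested.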

How the data were processed

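Per the labels' protocols, RNA of the sorted cells (mirVana kit) went through Ovation Pico WTA amplification and biotin labelling, a step that can lose dim transcripts unevenly. The series design names GeneSifter and a paired SAM analysis as the authors' methods. The deposited values were taken as log2 signal from their range of 0.035 to 13.06. How the authors summarised and normalized the arrays is not given in the sources used here. Array medians differed by 0.46, over the limit of 0.2 set for quantile normalization, which was applied after 64 control probe sets were removed. It can shift dim probe sets of an array with a different distribution.

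Gene symbols came from the platform annotation held by GEO, matched by Entrez identifier to RefSeq (GRCm38.p6); 34945 had 1 symbol, 932 several and 9160 none. Those in the lower 40% by mean (2.73) were removed, leaving 27022. The test was limma 3.58.1 under R 4.3.3 (lmFit, eBayes, Benjamini-Hochberg over all probe sets, threshold 0.05). Pool was a block, since the series design states paired pools. As a check, the 2 arrays of a pool deviated from their group means with correlations of 0.38, -0.19 and 0.35 for pools 1 to 3. The p-values rest on 3 separate pools, whose number limits the precision. They do not measure the spread of these pools alone. In the main fit the error had 2 residual degrees of freedom and 5.42 prior ones, drawn from all probe sets tested. The brightest probe set stood for a gene where 1 value was needed. The script was tested on simulated data.

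All Hox members are named. Full array values go to detected genes with 1 direction in all pools and to the 6 probe sets of smallest p, and of each other list up to 4 members of smallest p are named with Aldh1a2 and Krt19. The values of Hoxc4, Hoxc5, Hoxc9, Hoxd8 to Hoxd10, Hoxb3, Hoxb4, Hoxb9, Emx2, Meis2, Cdh5 and Emcn were added after they were seen. So were the promoters shown. Members and lists were chosen with earlier results of these data known. Proteins were not used here.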

Additional observations from a re-analysis of the deposited data

How the results depend on the processing

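The count of Hox probe sets past the threshold stayed at 0 with the values as deposited, with median-centred arrays, without or with a stricter filter, with each pool left out in turn, and without the ALDH-negative array of pool 2. With no replicate block, that is without the pairing, it was also 0, as was the count over all probe sets. Array weights raised the counts to 3 Hox probe sets and 2953 in all. Leaving out each pool in turn gave 0 to 7 probe sets over the whole table, and Hox medians of -0.65 to 0.14. The Hox median was 0.11 without the filter (33 genes), 0.0822 with the stricter filter (9 genes) and 0.0801 without the ALDH-negative array of pool 2. The median over all genes, -0.08, was 0.09 in the deposited values and 0.26 with median-centred arrays.

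The number of Hox genes detected in ALDH-negative cells depended on the rule, with 5 at the 99th percentile and 3 when all 3 arrays had to pass. Leaving out each pool gave 3 to 13 (4 without pool 1, 13 without pool 2 and 3 without pool 3), since the remaining 2 arrays both had to pass and the array of pool 2 passed few. For ALDH-positive cells the alternatives gave 9 to 18 genes, and 12 in the main setting. Of the 17 tested genes, 9 changed sign without pool 2. They were Hoxa5 (0.067), Hoxa7 (0.28), Hoxb4 (-0.50), Hoxb9 (0.097), Hoxb13 (0.15), Hoxc4 (0.052), Hoxd12 (0.62), Hoxa9 and Hoxc6. Without pool 1, 3 did so (Hoxc5, Hoxd8 and Hoxd9), without pool 3 only Hoxc9, and 6 each with array weights and without the ALDH-negative array of pool 2. Hoxa9 changed sign without pool 2 (range -1.72 to 0.0755 with each pool left out) and without the ALDH-negative array of pool 2 (0.0249). Hoxc6 did so with median-centred arrays (0.0067), without pool 2 (range -0.85 to 0.14 with each pool left out), without that array (0.0801) and when its probe sets were averaged (0.38). The cause was not tested.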

Other observations

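Besides the members, 8 probe sets carried Hox symbols, 5 of noncoding transcripts and 3 of several genes, and 0 of the 2 tested passed the threshold. Hoxd3os1, a transcript of the D cluster annotated as noncoding, read 3.19, 3.14 and 3.44 on the ALDH-negative arrays and 2.77, 3.29 and 5.29 on the ALDH-positive ones of pools 1, 2 and 3 at its brighter probe set. The high value lies on the ALDH-positive array of pool 3, which also carried the signals of Hoxb3 and Hoxd10 that no other array showed, and the highest value of Hoxb6. The second probe set of Hoxd3os1 read 1.47 to 2.28 on all arrays. Both probe sets of Hoxa11os read 0.50 to 1.77, and that of Hoxb5os 1.86 to 3.35. Hoxc10, next to the detected run of the C cluster, had a signal of 4.37 in the ALDH-positive and 2.92 in the ALDH-negative fraction of pool 1, and 1.36 to 2.31 on the other arrays.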
